A study of Mus musculus with 14 samples.

Results

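The late neutrophil granule genes are 9 mouse genes, Ltf, Camp, Lcn2, Ngp, Chil3, Mmp8, S100a8, S100a9 and Retnlg, taken by symbol from 32589 features in 6 sections and 19465 features in 8 sections. They were chosen by their values in the spleens of a C1qa cross, where they were lower in knockout than in wild-type sections, so that the spleen genotype difference is given below as a description with no test. Each of the 9 symbols was found in all 14 sections. Levels are counts of unique molecular identifiers (UMIs, 1 for each captured probe ligation) scaled to a common total for each section (CPM, counts per 1e+06 UMIs), summed over the spots lying on tissue with at least 1000 detected genes.

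Neutrophils form in marrow and fetal liver and pack their granules in a set order. Primary granules, with myeloperoxidase and elastase, are loaded in promyelocytes, and the specific (secondary) and gelatinase (tertiary) granules follow in myelocytes and metamyelocytes. C/EBP epsilon is required for the specific granule proteins. The transcripts of the members thus mark the later part of granule formation, and S100a8 and S100a9 stay abundant in mature neutrophils, which pass through the red pulp of the spleen.

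The data are Visium probe-based spatial transcriptomics of formalin-fixed, paraffin-embedded mouse tissue, in which a spot collects RNA from several cells. Of the sections, 6 came from purchased wild-type mice with 1 section a group, namely E13.5 fetal liver, E14.5 fetal liver, leg bone at P8, leg bone at 89 weeks, leg bone of an adult of 6 months after 5 days in 0.5 M EDTA, and adult spleen. The other 8 came from crosses of C1qa heterozygous mice and held 2 sections a group, wild-type and C1qa knockout E14.5 fetal liver, numbered 2 and 4, and wild-type and C1qa knockout spleen at 3 months, numbered 1 and 2. The knockout is in the germline, and all cross sections were labelled as untreated. Because spots mix cells, fewer neutrophils and less RNA in each neutrophil cannot be told apart in any value below.

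Between 37167 and 56182915 UMIs per section lay in passing spots, which numbered 15 to 2320. The EDTA section kept 15 of 814 spots and is given as values only. C1qa, the targeted gene, ran from 25.8 to 269 CPM in the 4 wild-type cross sections and from 0.0548 to 0.189 CPM, or 1 to 2 counts each, in the 4 knockout sections. Other tissue was present in some sections. In the knockout spleens, 2.32% and 2.92% of spots held at least 1% of UMIs from pancreas genes, against 0 and 2.07% of spots in the wild-type spleens. Hepatocyte genes gave 0.5% of UMIs or more in 94.4% and 96.6% of spots of the number 2 fetal livers but in 29.4% and 62.1% of spots of the number 4 livers (wild type, knockout).

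The promoter windows of Camp, Ngp, Ltf and Lcn2 are shown because these 4 genes differed most between the genotypes in spleen. Camp starts at chr9:109849456 and encodes the cathelicidin antimicrobial peptide (minus strand). Ngp, neutrophilic granule protein, begins at chr9:110419808, and Ltf, the iron-binding lactoferrin, at chr9:111019292. Lcn2, the siderophore-binding lipocalin 2, starts at chr2:32387739. The windows run from 250 bases before to 50 after the RefSeq start (GRCm38.p6, which is mm10), 5′ to 3′ on the gene's strand, and capitals mark TTGCNNAA, letters that C/EBP factors bind, on either strand. In order, the windows are chr9:109849407-109849706 (minus strand), chr9:110419558-110419857 (plus), chr9:111019042-111019341 (plus) and chr2:32387690-32387989 (minus).
Camp: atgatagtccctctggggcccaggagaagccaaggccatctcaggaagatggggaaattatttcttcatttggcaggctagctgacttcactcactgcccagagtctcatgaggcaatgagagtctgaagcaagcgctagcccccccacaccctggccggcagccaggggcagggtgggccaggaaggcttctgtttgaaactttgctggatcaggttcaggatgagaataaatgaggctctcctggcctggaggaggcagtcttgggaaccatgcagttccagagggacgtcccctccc
Ngp: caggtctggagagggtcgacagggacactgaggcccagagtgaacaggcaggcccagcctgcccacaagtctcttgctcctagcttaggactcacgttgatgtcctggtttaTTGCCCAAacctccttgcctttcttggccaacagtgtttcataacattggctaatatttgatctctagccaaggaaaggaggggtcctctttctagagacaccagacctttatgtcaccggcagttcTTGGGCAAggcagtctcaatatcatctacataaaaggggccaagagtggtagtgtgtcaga
Ltf: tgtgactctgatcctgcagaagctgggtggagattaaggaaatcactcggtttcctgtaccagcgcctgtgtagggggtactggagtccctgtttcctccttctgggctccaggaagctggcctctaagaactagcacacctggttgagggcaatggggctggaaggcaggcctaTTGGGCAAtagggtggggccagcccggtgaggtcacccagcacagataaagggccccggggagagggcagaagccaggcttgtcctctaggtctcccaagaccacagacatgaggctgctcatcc
Lcn2: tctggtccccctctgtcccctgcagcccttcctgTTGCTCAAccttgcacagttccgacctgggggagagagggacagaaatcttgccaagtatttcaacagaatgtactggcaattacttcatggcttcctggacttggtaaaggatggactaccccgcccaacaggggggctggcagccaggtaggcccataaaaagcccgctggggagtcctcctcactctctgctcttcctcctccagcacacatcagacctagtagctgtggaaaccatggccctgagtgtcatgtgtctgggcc
The letters TTGCNNAA were found at bases 113 and 240 of the Ngp window, at base 176 of the Ltf window, at base 35 of the Lcn2 window and nowhere in the Camp window. Over the list, 6 of 9 windows held them (also Mmp8, S100a9 and Retnlg), against 10.8% of all 32851 RefSeq windows. The looser TTNCNNAA was in 8 of 9 member windows and 40.7% of all windows, and GAGGAA, the core that PU.1 binds, in 4 of 9 and 28.3%. The looser letters include every TTGCNNAA match. These are matches of letters in a short window and say nothing of binding.

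Among the purchased sections, the members were lowest in fetal liver and spleen and highest in marrow. Their summed level was 426 CPM in E13.5 and 520 CPM in E14.5 fetal liver, 786 CPM in adult spleen, 5291 CPM in P8 marrow and 25970 CPM in 89-week marrow. The 15 spots of the EDTA section gave 17785 CPM, and all 814 of its spots gave 12808 CPM. P8 marrow was 10.2-fold above E14.5 fetal liver and 89-week marrow 4.91-fold above P8 marrow, with all 9 members higher at each step. The P8 section held much growing bone, with bone genes at 115374 CPM and cartilage genes at 33336 CPM in sum against 543 and 19.3 CPM at 89 weeks. In its 290 spots led by pan-leukocyte genes, of 1085, the members summed to 9479 CPM, which is 18.2-fold above E14.5 fetal liver and 2.74-fold below 89-week marrow, again with all 9 members in that order. The E14.5 section was 1.22-fold above E13.5, with Ltf, Mmp8 and Retnlg lower and Chil3 listed at 0 in E13.5. With 1 section a group these ratios have no replicate check, and the 2 wild-type E14.5 sections of the cross differed from each other by 24.7-fold (3456 and 140 CPM), more than any of them.

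**Figure D1:**
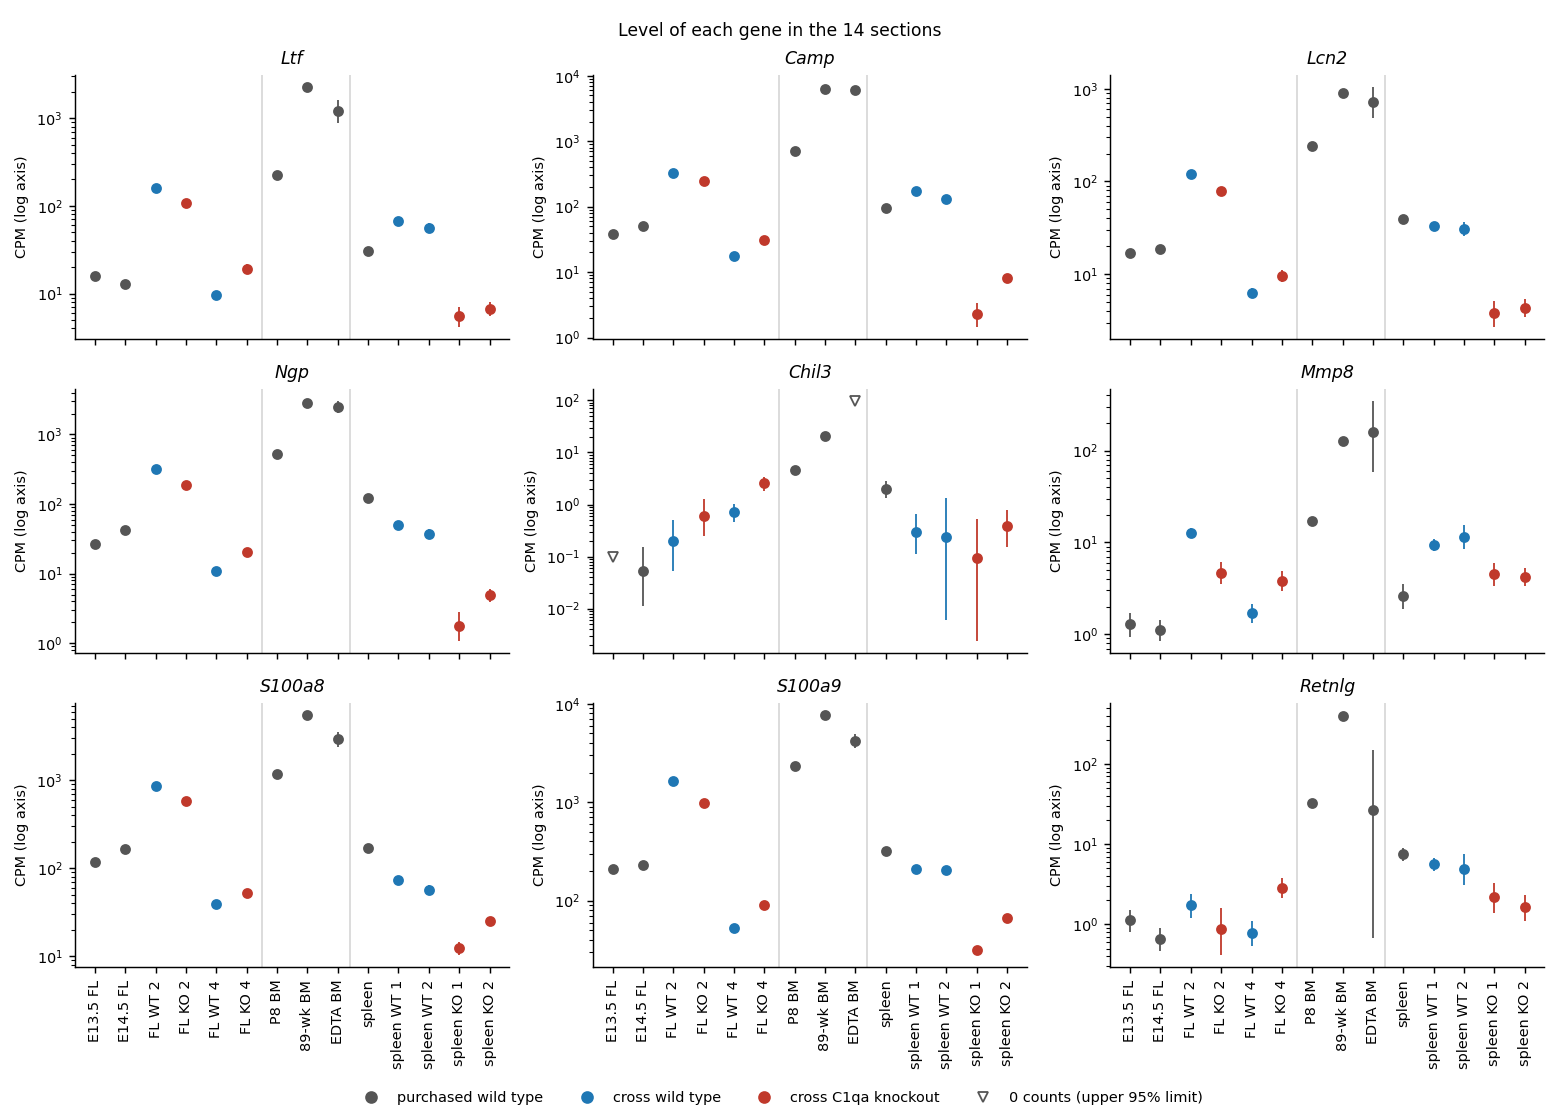
Level of each gene in the 14 sections, in CPM on a log axis with 95% Poisson intervals that cover counting error only (FL, fetal liver; BM, bone marrow; WT and KO, cross wild type and C1qa knockout with their numbers). The P8 and 89-week marrow points lie highest among sections with more than 15 spots in every panel, and the knockout spleens lie below the wild-type spleens in every panel but Chil3.

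The cathelicidin gene Camp stood at 38.4 and 49.7 CPM in the purchased E13.5 and E14.5 livers, at 94.0 CPM in the purchased spleen, at 720 CPM in P8 marrow and at 6212 CPM in 89-week marrow. Ltf went from 12.9 CPM in E14.5 liver to 223 CPM at P8 and 2261 CPM at 89 weeks, and Ngp from 41.9 to 523 and 2829 CPM. These specific granule genes differed by more between P8 and 89 weeks than S100a9, which went from 2341 to 7691 CPM and had the smallest step of the 9 (1.72 on the log2 scale). Retnlg, a resistin-like secreted protein of mature neutrophils, had the largest step (3.61 on the log2 scale), from 32.6 to 399 CPM. Single sections carry both ends of these steps, and whether they differ beyond the spread between mice was not tested.

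Mmp8, the neutrophil collagenase, and Chil3, a chitinase-like secreted protein, were the scarcest. Mmp8 reached 17.2 CPM at P8 and 129 CPM at 89 weeks and lay between 1.10 and 12.6 CPM in the fetal livers. Chil3 was at 20.9 CPM at 89 weeks, at 4.60 CPM at P8 and under 3 CPM in every other section. In the 4 cross spleens it rested on 6, 1, 1 and 7 counts.

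Chil3 was higher in the number 4 than in the number 2 livers of both genotypes, Retnlg only in the knockouts, and Camp in neither. In the number 4 livers only 29.4% and 62.1% of spots (wild type, knockout) were rich in hepatocyte genes, so those sections hold much other tissue. Camp was 330 and 250 CPM in the number 2 livers (wild type, knockout) and 17.6 and 30.8 CPM in the number 4 livers. Retnlg was 1.73 and 0.866 CPM in the former and 0.783 and 2.85 CPM in the latter, and Chil3 was 0.198 and 0.606 CPM against 0.707 and 2.56 CPM. Per 1000 Camp UMIs, Retnlg gave 5.25 and 3.46 UMIs in the number 2 livers, 44.6 and 92.7 in the number 4 livers, 45.3 in P8 marrow, 64.2 in 89-week marrow and 80.0 in the purchased spleen. It gave 13.2 and 29.2 in the purchased E14.5 and E13.5 livers, and 958 and 205 in the knockout spleens, where Camp was lowest. Retnlg rested on 35 and 10 counts in the number 2 livers and 31 and 48 in the number 4 livers. Chil3 rested on 4 and 7 counts in the former and 28 and 43 in the latter. With Retnlg this scarce, the ratio in fetal liver depends mostly on the Camp level and says little of Retnlg itself.

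Set against the primary granule genes (Mpo, Elane, Prtn3, Ctsg, Ms4a3, Ctsc and Fcnb), the members kept their order over the purchased sections, the EDTA section aside. For each primary granule UMI there were 1.37 and 1.59 member UMIs in the purchased fetal livers, 2.11 in the purchased spleen, 4.67 at P8 and 7.03 at 89 weeks. The cross livers did not follow a ranking by tissue. Those numbered 2 gave 6.95 (wild type) and 3.49 (knockout), and those numbered 4 gave 1.03 and 1.57. The wild-type spleens gave 3.40 and 2.40 and the knockout spleens 0.582 and 1.13. Knockout spleen 1 was the only section with fewer member than primary granule UMIs, with Ctsc counted. Ctsc alone gave 72.0 of 110 CPM of the list in knockout spleen 1 and 75.0 of 107 CPM in knockout spleen 2. In the wild-type spleens it gave 76.0 of 183 and 91.1 of 222 CPM, so the knockout ratios rest mostly on this 1 gene.

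In the spleens of the cross, 8 of 9 members were lower in both knockout sections than in both wild-type sections. Camp stood at 171 CPM in wild-type spleen 1 and 129 CPM in wild-type spleen 2, but at 2.27 and 8.00 CPM in knockout spleens 1 and 2, a 29.3-fold difference of means (150 ± 29.6 against 5.13 ± 4.05 CPM, SD, n = 2). Ltf was 66.7 and 56.3 CPM against 5.48 and 6.63 CPM, 10.2-fold apart. The groups stood well apart for both genes, with the lowest wild-type section 16.2-fold and 8.50-fold above the highest knockout section. Ngp was 49.8 and 37.2 CPM against 1.79 and 4.87 CPM, and Lcn2 33.4 and 30.8 CPM against 3.78 and 4.33 CPM. The size of 2 of these differences hung on single sections. Camp differed by -6.05 on the log2 scale without knockout spleen 2 and by -4.23 without knockout spleen 1, and Ngp by -4.60 and -3.16.

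The calprotectin genes differed by less than these granule genes. S100a8 stood at 73.7 and 56.3 CPM in the wild types against 12.4 and 25.1 CPM in the knockouts, 3.47-fold apart. S100a9 was 211 and 206 CPM against 31.4 and 66.1 CPM, 4.28-fold apart. Their products form the calcium-binding heterodimer calprotectin, and the genes are neighbours on chr3. For both, knockout spleen 1 was the lowest of the 4 sections and knockout spleen 2 lay between it and the wild types. Without knockout spleen 2 the log2 differences were -2.39 for S100a8 and -2.73 for S100a9, and without knockout spleen 1 they were -1.37 and -1.66.

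The 3 remaining genes were near the lower limit of the assay in spleen. Mmp8 was 9.43 and 11.6 CPM against 4.53 and 4.22 CPM, and Retnlg 5.67 and 4.97 CPM against 2.17 and 1.64 CPM. Chil3 was at 0.301 and 0.237 CPM against 0.0944 and 0.383 CPM, and its groups overlapped. As a gauge of that limit, 22 genes of cartilage, muscle and hepatocytes had median levels of 6.70 and 8.52 CPM in the wild-type and 4.86 and 3.51 CPM in the knockout spleens. In knockout spleen 1, Camp, Lcn2, Ngp, Chil3, Mmp8 and Retnlg were at or under that median, so that folds for these genes rest on values that unrelated genes also reached. Chil3 and Retnlg were at or under the median of the section in both wild-type spleens and in knockout spleen 2 as well.

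**Figure D2:**
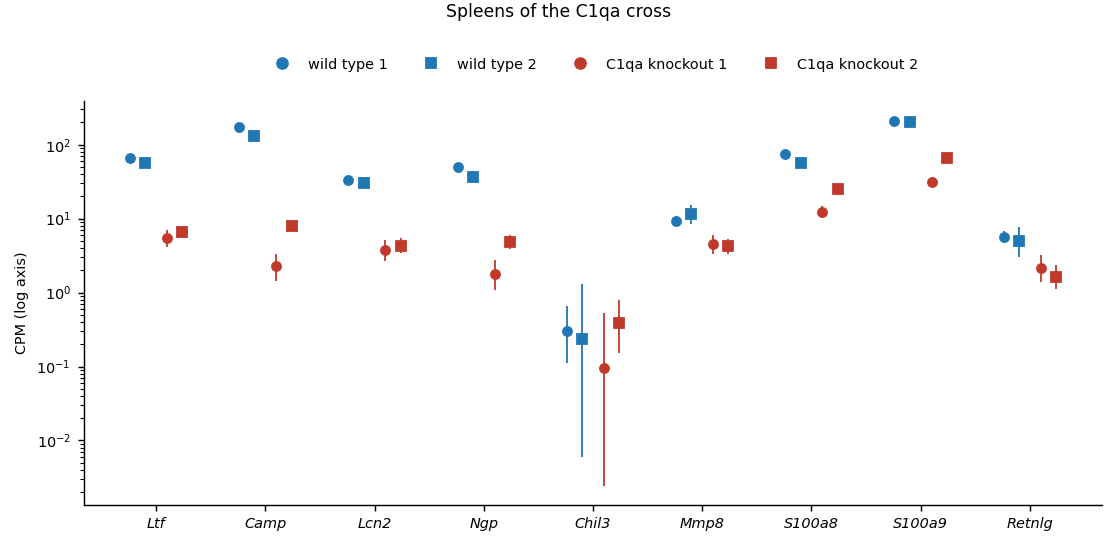
CPM on a log axis of each gene in the 4 cross spleens, with 95% Poisson intervals (blue, wild type; red, C1qa knockout; circles, number 1; squares, number 2). For 8 of 9 genes both red points lie below both blue points, and for Chil3 they overlap.

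Being lower in both knockout spleens was common, since 51.5% of 18895 genes were. The median gene and the list medians of this comparison are log2 ratios of mean CPM + 1, and that of the median gene was -0.29. With TMM in place of total UMIs, 6909 genes were lower and 6132 higher in both knockout spleens, against 9724 and 3553, while 8 members were lower by either scaling. A difference of at least 4-fold in mean CPM + 1 with no overlap was found for 5 of 9 members (Ltf, Camp, Lcn2, Ngp and S100a9) and for 0.206% of all genes. As the members were selected on this contrast, nothing follows from either share. Other lists moved in the same sections. Primary granule genes were lower in both knockout spleens for 7 of 7 genes (median -1.42), Elane at 35.6 and 53.5 CPM against 8.59 and 9.37 CPM. Erythroid genes were lower for 13 of 14 genes measured, and the summed erythroid level was 58170 and 16094 CPM against 7127 and 15541 CPM. Pancreas genes were higher for 10 of 10, with sums of 71.8 and 1053 CPM against 4144 and 28445 CPM. Without the spots rich in pancreas genes the member sums were 621 and 534 CPM against 60.9 and 126 CPM. Megakaryocyte genes were lower for 6 of 6 (median -0.83), with sums of 303 and 327 CPM against 137 and 161 CPM. The part of erythroid and megakaryocyte RNA in the member values was not tested. Monocyte genes did not share the size of the difference (median -0.19, 3 of 7 lower in both), nor did macrophage genes (median 0.03, 4 of 10 lower and 4 of 10 higher). By TMM scaling the monocyte median was 0.05, with 1 gene lower and 2 higher in both knockout spleens, and the primary granule median -1.20, with 6 of 7 lower.

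Among the transcription factors of granulocytes, Cebpe had 12.1 and 13.5 CPM in the wild types against 6.61 and 4.00 CPM in the knockouts, and Gfi1, a repressor needed for neutrophil formation, was 18.6 and 17.0 against 11.1 and 9.80 CPM. Cebpb and Cebpd were lower by 0.38 and 0.34 on the log2 scale. Cebpa (44.2 and 38.8 against 46.2 and 47.1 CPM) and Spi1, which encodes PU.1 (129 and 147 against 173 and 163 CPM), were higher in both knockout sections, and Irf8 overlapped. Of the 7 factors 4 were thus lower, 2 higher and 1 overlapping, with a median of -0.33, and by TMM scaling 3 were lower and 2 higher. Of the 5 other late neutrophil genes most abundant in the cross sections, Slpi, Anxa1, Pglyrp1 and Olfm4 were lower in both knockout spleens by 0.32, 0.52, 0.31 and 0.67 on the log2 scale, and Cybb was higher by 0.28. None of these 5 moved as far as Camp, Ngp or Ltf. Over that whole list, 21 of 27 genes were lower in both knockout spleens and 3 higher (median -0.60). By TMM scaling 15 were lower and 3 higher (median -0.37). Lists of other tissues had medians of similar size. Cartilage genes were lower in both knockout spleens for 6 of 6 (median -0.90) and bone genes for 7 of 8 (median -0.63). Muscle genes were lower for 5 of 6 tested (median -0.63) and hepatocyte genes for 6 of 8 (median -0.60). By TMM scaling these medians were, in that order, -0.69, -0.40, -0.40 and -0.39. Among ligands and chemokine genes of neutrophil traffic, 3 of 6 were lower in both knockout spleens and 2 higher, and Csf3, the gene of the growth factor G-CSF, had too few counts (0.351 and 0 against 0 and 0.0548 CPM) to be placed. The median of the 5 others was -0.29, and by TMM scaling 1 was lower and 2 higher. Cxcr4, the receptor that retains neutrophils in marrow, was higher at 144 and 156 against 94.6 and 106 CPM. Of 5 receptor genes for member products 4 were lower (median -0.67), and by TMM scaling also 4 (median -0.44). Both medians lay within the range of the cartilage, bone, muscle and hepatocyte medians.

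Where in the spleen the members lay was examined by splitting the passing spots of each section, without those rich in pancreas genes, into 3 equal parts by the share of UMIs from lymphoid genes. The lymphoid-poor part held more macrophage and erythroid RNA, as red pulp does, and the lymphoid-rich part corresponds to white pulp. The summed members were 1801 CPM in the lymphoid-poor and 312 CPM in the lymphoid-rich part of the purchased spleen, 1388 and 160 CPM in wild-type spleen 1, 1194 and 138 CPM in wild-type spleen 2, 72.5 and 46.9 CPM in knockout spleen 1 and 164 and 83.5 CPM in knockout spleen 2. All 5 sections were higher in the lymphoid-poor part.

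This split does not use the genotype contrast, and it was tested over the 4 cross spleens with the section as a block. The same spleens chose the members, and their lymphoid genes summed to 10964.5 and 10064 CPM in the knockouts against 9014 and 9065 CPM. The p-values are thus not fully independent of that choice. Of 8 members tested, 7 were lower in the lymphoid-rich part (edgeR quasi-likelihood test, adjusted p under 0.05), where 7.72% of 18433 genes were called lower. The log2 difference, rich minus poor, was -3.62 ± 0.38 for Camp (SE, edgeR adjusted p = 0.000169), -2.91 ± 0.39 for Ngp (0.000767) and -2.55 ± 0.29 for Ltf (0.000302). It was -2.36 ± 0.37 for S100a8 (0.00177), -2.09 ± 0.35 for S100a9 (0.00277), -1.82 ± 0.38 for Lcn2 (0.00939) and -0.70 ± 0.20 for Mmp8 (0.0453). The specific granule genes Camp, Ngp and Ltf thus differed most between the parts. Retnlg was at -0.25 ± 0.27 (0.646), and Chil3 had too few counts to be tested. The median over the 8 was -2.22, against 0.00 over all genes. DESeq2 called 4 of the 8 (Ltf, Camp, S100a8 and S100a9), with Lcn2 and Ngp at adjusted p of 0.165 and 0.0705. Without wild-type spleen 2, edgeR called 5, Lcn2 (adjusted p = 0.0971) and Mmp8 (0.162) being lost. The Mmp8 call was also lost without wild-type spleen 1 (0.383) and without knockout spleen 1 (0.0609).

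The difference between these parts was larger in the wild-type sections for each of the 8 genes. Fitted within the wild-type spleens alone it was -4.22 for Camp, -3.15 for Ltf, -3.42 for S100a8 and -2.66 for Lcn2 on the log2 scale, and within the knockout spleens alone -1.76, -1.30, -1.23 and -0.18. The difference between the genotypes ran from 0.66 (Retnlg) to 2.43 (Camp) with a median of 2.07. Since the members were chosen for their fall in these same knockout sections, this is a description with no test. In knockout spleen 1 Camp rested on 4 counts in the lymphoid-poor and 5 in the lymphoid-rich part (1.13 and 1.47 CPM), and Lcn2 on 15 and 14. The lymphoid share itself spanned less in the knockout sections, 0.749% to 1.47% and 0.710% to 1.44% of UMIs against 0.420% to 1.32% and 0.535% to 1.30% in the wild types.

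**Figure D3:**
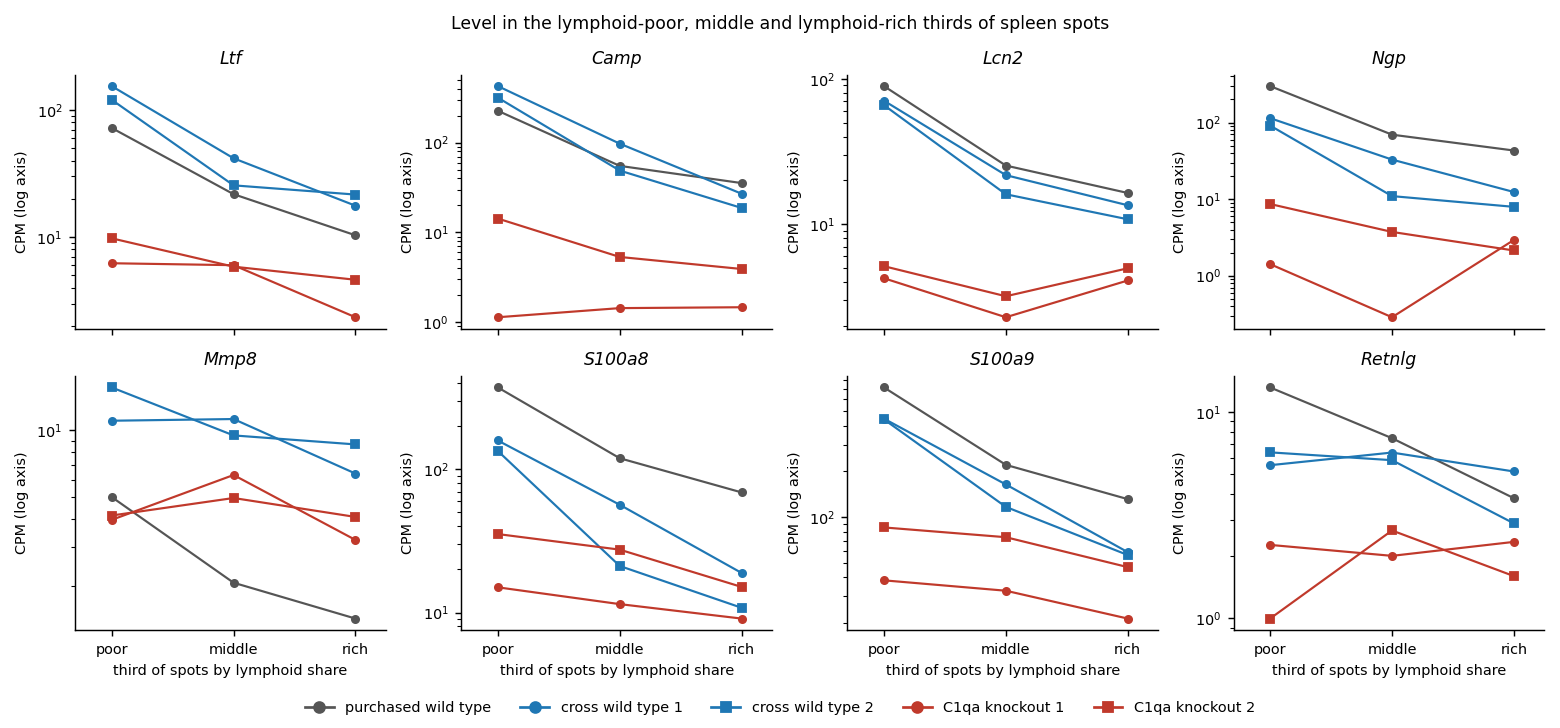
CPM on a log axis of 8 genes (Chil3 left out) in the lymphoid-poor, middle and lymphoid-rich parts of the spots of 5 spleens (grey, purchased; blue, cross wild type; red, C1qa knockout). Grey and blue lines fall from poor to rich for all of Ltf, Camp, Lcn2, Ngp, S100a8 and S100a9. Red lines start lower in every panel, and for S100a8 knockout spleen 2 lies above wild-type spleen 2 in the middle and lymphoid-rich parts.

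Other neutrophil genes shared the direction in part. Of 7 primary granule genes 5 were called lower in the lymphoid-rich part, among them Prtn3 (-1.63 ± 0.27, edgeR adjusted p = 0.00266), Mpo (-1.55 ± 0.27, 0.00343) and Elane (-1.48 ± 0.29, 0.00650). Of 26 further late neutrophil genes tested, 11 were lower and 2 higher, among them Slpi (-2.71) and Cybb, an NADPH oxidase subunit that other leukocytes also use (0.61). Of the transcription factors, Cebpb (-0.79) and Cebpd (-0.50) were lower and the other 5 were not called. Of 4 ligand and chemokine genes tested, 1 was called lower, Cxcl12 (-1.35), which encodes the ligand of CXCR4, and of 5 receptor genes 0 were called by edgeR, with 2 at an unadjusted p under 0.05. All 10 macrophage and all 14 erythroid genes tested were lower in the lymphoid-rich part (medians -1.60 and -3.12), as were 6 of 7 monocyte genes (median -0.81). The 7 members thus moved with red-pulp RNA of several kinds, and the part of those cells in the member values was not tested.

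The members were also high along the rim of the spleen sections, a split made after the maps were seen. Passing spots with fewer than 6 neighbours on tissue held 3117 CPM of the members in the purchased spleen against 536 CPM in inner spots. The values were 892 and 579 CPM in wild-type spleen 1, 2535 and 397 CPM in wild-type spleen 2, 150 and 54.3 CPM in knockout spleen 1 and 319 and 95.5 CPM in knockout spleen 2. All 5 rims were above their inner spots, by 1.54-fold to 6.39-fold. Rim spots were also the poorer in lymphoid genes in all 5 sections, with 0.630%, 0.673%, 0.427%, 0.779% and 0.503% of UMIs against 1.09%, 0.936%, 0.939%, 1.13% and 1.07% in inner spots, so that the rim and the lymphoid-poor part overlap as locations. Among inner spots alone, the wild-type mean was 6.51-fold above the knockout mean, against 6.23-fold over all passing spots.

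**Figure D4:**
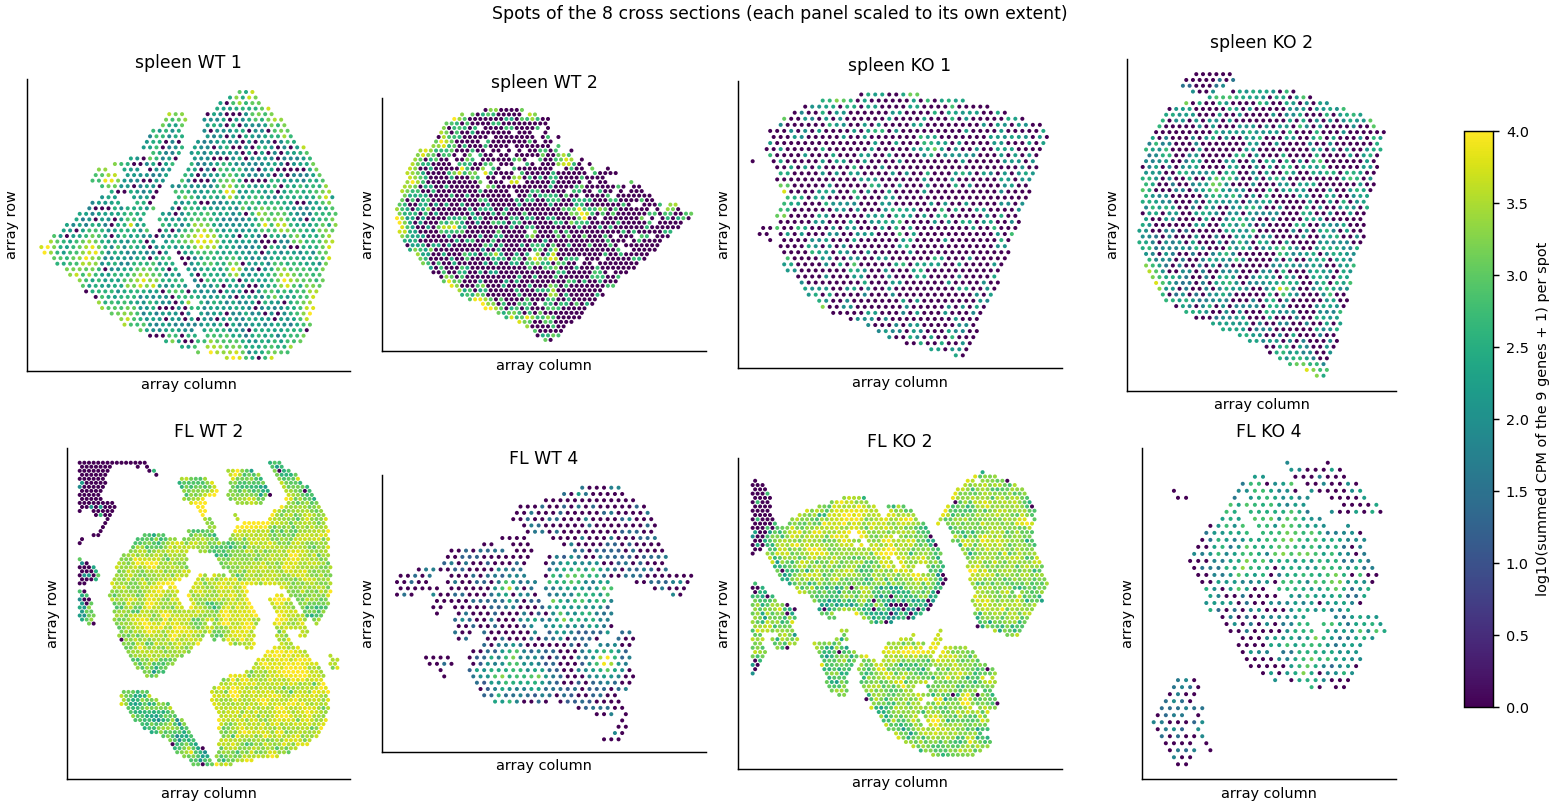
Spots of the 8 cross sections at their array rows and columns, coloured by log10 of the summed CPM of the 9 genes plus 1 (upper panels, spleens; lower panels, E14.5 fetal livers; each panel at its own scale). Wild-type spleens show bright rims and patches over a dark field, knockout spleens have few bright spots, and the number 2 fetal livers are brighter than the number 4 livers in both genotypes.

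In E14.5 fetal liver no member was called between the genotypes. The summed level was 3456 and 140 CPM in wild-type livers 2 and 4 and 2192 and 233 CPM in knockout livers 2 and 4. The numbers, which the study ties to the dam, separated the sections far more than the genotype did. S100a9 was 1655 and 52.9 CPM in the wild types and 982 and 90.9 CPM in the knockouts, Ngp 318 and 11.0 against 189 and 20.5 CPM, and Ltf 160 and 9.57 against 109 and 19.2 CPM. The groups overlapped for every member.

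The 9 log2 differences, knockout minus wild type, ran from -1.20 (Mmp8, SE 1.13) to 1.50 (Chil3, SE 0.85) with a median of -0.71, and all 9 edgeR adjusted p were 1.00. The called share was 0% of 18986 genes, with 138 genes at an unadjusted p under 0.05, none of them a member, and DESeq2 called 7 genes, again no member. With the number as a block, 0.827% of genes were called and 0 of 9 members, whose median difference was -0.16 and whose adjusted p ran from 0.919 to 0.992. The SE of S100a9 was then 0.37 on the log2 scale, in place of 1.80 without the block. Leaving out wild-type liver 2 left the knockouts against wild-type liver 4 alone. Ltf, Camp, Lcn2 and Ngp were then called higher in the knockouts, at 3.36, 3.65, 3.49 and 3.91 on the log2 scale, where 0.349% of genes were called higher. Leaving out any of the other 3 sections called no member.

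Among the hepatocyte-rich spots alone, the numbers still stood apart. There, the summed members were 3582 and 216 CPM in wild-type livers 2 and 4 and 2254 and 313 CPM in knockout livers 2 and 4. Over all passing spots, primary granule genes summed to 497 and 137 CPM in wild-type livers 2 and 4 and to 628 and 148 CPM in knockout livers 2 and 4, a smaller gap than that of the members. Of 8 members tested in the hepatocyte-rich spots with the block, 0 were called, with a median difference of -0.29. Whether the genotype difference itself differs between liver and spleen was not tested. The SEs of S100a8 and S100a9 in the unblocked liver fit were 1.69 and 1.80 on the log2 scale. With the block they were 0.33 and 0.37, with differences of -0.30 and -0.21. The spleen differences chose the members, so these values are not set against them.

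Within sections, the members were found together. Spots were ranked by S100a8 plus S100a9, and the other 7 genes were summed in the top 10%, in the spots next to them and in all others. They were 19.2-fold higher in the top 10% than in the rest in the purchased spleen, 20.7-fold and 30.4-fold in the wild-type spleens and 3.74-fold and 9.09-fold in the knockout spleens. In fetal liver the ratio was 6.57 at E13.5, 5.84 in the purchased E14.5 section, 3.97 and 28.7 in the wild-type and 4.30 and 7.14 in the knockout sections. It was 8.55 at P8 and 2.04 at 89 weeks, where the members were high nearly everywhere. Spots hold few member UMIs in some sections (a median of 0 in knockout spleen 1 and wild-type spleen 2, 205.5 at 89 weeks), so the ratios are not compared between sections. Erythroid genes were also higher in the top 10%, 8.66-fold in wild-type liver 4 and 3.22-fold at P8, which hold much other tissue. They were 4.02-fold higher in the purchased spleen, 3.07-fold and 7.35-fold in the wild-type spleens and 4.63-fold and 6.82-fold in the knockout spleens. In knockout spleen 1 the erythroid ratio was above that of the 7 genes. Macrophage genes were 1.65-fold to 3.19-fold higher in the top 10% of the spleens. In wild-type liver 2 the erythroid genes were at 0.892 of the rest. The part of tissue borders in these ratios was not tested.

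**Figure D5:**
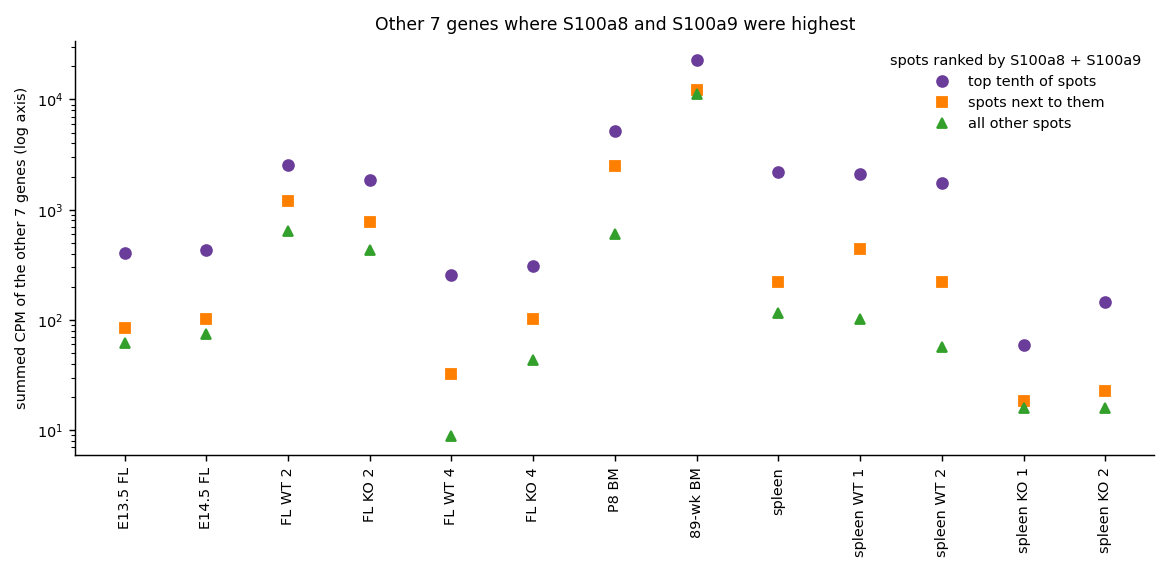
Summed CPM of the other 7 genes on a log axis in the 10% of spots with most S100a8 and S100a9 (circles), in the spots next to these (squares) and in all remaining spots (triangles), for 13 sections. Circles lie above squares and squares above triangles in all 13 sections.

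The neighbouring spots fell off steeply in the spleens. In wild-type spleen 1 the other 7 genes were at 2098 CPM in the top 10%, 437 CPM in the adjoining spots and 101 CPM in the rest, and in wild-type spleen 2 at 1729, 222 and 56.8 CPM. Primary granule genes were raised in the same spots but by less, 2.55-fold and 3.95-fold, and monocyte genes by 1.13-fold and 1.50-fold. In the 89-week marrow the primary granule genes were raised 1.44-fold and erythroid genes were lower, at 0.786 of their level in the rest.

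In the growing bone at P8, spots were grouped by whichever list (pan-leukocyte, bone, cartilage or muscle) stood highest in them. The summed members were 9479 CPM in 290 pan-leukocyte spots, 2364 CPM in 246 bone spots, 1333 CPM in 153 muscle spots and 972 CPM in 396 cartilage spots. S100a9 was 4186 CPM in the first and 444 CPM in the last, and Camp 1301 and 129 CPM. Erythroid genes stood at 39632 and 4793 CPM in the same groups of spots, so that the members and the erythroid genes were both highest in pan-leukocyte and lowest in cartilage spots.

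The members did not vary alike in the 89-week section. Across its 932 spots, Pearson r of log2(CPM + 1) with the sum of the other 8 was 0.859 for S100a8, 0.822 for Ngp, 0.794 for Camp, 0.752 for S100a9 and 0.712 for Ltf, but 0.471 for Lcn2, 0.227 for Chil3, 0.166 for Mmp8 and 0.039 for Retnlg. These are descriptions across spots of 1 library. Chil3 and Mmp8 had about 1 UMI a spot or fewer (0.189 and 1.16), whereas Retnlg had 3.61 UMIs a spot, below the 8.23 of Lcn2. Retnlg went from 353 CPM in the part of spots lowest in the other 8 (1 of 3 equal parts) to 420 CPM in the highest part, against 1641 and 4335 CPM for Ngp. Across the 1085 spots of the P8 section the members were more alike, with r of 0.465 for Retnlg, 0.443 for Mmp8 and 0.307 for Chil3 against 0.640 to 0.726 for the other 6, and Retnlg went from 3.75 to 57.7 CPM between the lowest and highest parts.

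The genes whose level over the 13 sections other than the EDTA section was most like the mean of the members, among 10308 genes with a mean of at least 10 CPM, were Elane (Pearson r 0.967), Cebpe (0.941), Fcnb (0.937), Wfdc21 (0.928), Hp (0.914), Ms4a3 (0.908), Abcd2 (0.892) and Ctsg (0.890). Elane, Fcnb, Ms4a3 and Ctsg belong to the list used here for primary granules, Cebpe is the factor named above, and Hp encodes haptoglobin. Of the members themselves, Lcn2 (0.987) and Ltf (0.984) followed the mean, which includes them, most closely and Retnlg (0.838) least among the 8 at that level. Across the spots of the 89-week section, the genes most like the summed members were Wfdc21 (0.511), Cd177 (0.374), Arhgdib (0.334), Ncf1 (0.321), Tmsb4x (0.314), Pglyrp1 (0.288), Cybb (0.288) and Anxa1 (0.287). These are again descriptions across sections or spots that share libraries and depth.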

How the data were processed

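Visium probe-based libraries from 14 sections were analysed, in 10 groups of 1 or 2 sections. The authors ran Space Ranger on the reads (the submitters' processing notes name mm10, no version), and the deposited values are raw UMI counts per gene and spot, with no normalization. From these, counts were summed over spots on tissue with at least 1000 detected genes, and scaled to CPM over all UMIs of those spots. Sections of 1 group differed from each other by more than sampling noise (chi-square per degree of freedom of 22.1 to 672). Where nothing says that sections came from separate mice, p-values measure only the spread between sections. Intervals are 95% exact Poisson intervals and cover counting error only.

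Tests across all genes used edgeR 4.0.16 (R 4.3.3, TMM, quasi-likelihood F test) with Benjamini-Hochberg adjustment at 0.05, and DESeq2 1.42.0 as an alternative. Scripts were tested on counts simulated with less spread between sections than the fetal livers had, so this does not gauge the power there. Fetal livers that share a number deviated together from the mean of their genotype (correlation 0.641). With 2 sections a genotype this is 1 value for both numbers. The study ties the number to the dam, so the number was also fitted as a block. The numbers also differed in the share of hepatocyte-rich spots, and dam and tissue content cannot be told apart. The spleen numbers did not pair the sections (0.0243).

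The members and lists were chosen with earlier results of these data known. The spleen genotype contrast chose the members and has no test, and the planned test of the difference between genotypes in the pulp contrast is given as a description for the same reason. Named genes outside the members are those of the listed pathways, the 5 most abundant other late neutrophil genes, and the 8 genes most like the members. Spots off tissue were held by the 6 purchased sections and used only in the closing values. Thinning drew 2000 UMIs from each spot. Promoters came from RefSeq, in which all 9 members matched.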

Additional observations from a re-analysis of the deposited data

Results flagged for a closer look

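Spots outside the tissue, which no comparison above uses, held member UMIs in all 6 purchased sections. Any such UMI is above a count of 0, so that the share of member UMIs beside that of all UMIs is the value to read. The summed members were at 477 CPM off tissue in E13.5 fetal liver, 481 CPM in E14.5 fetal liver, 5772 CPM in P8 marrow, 28282 CPM in 89-week marrow, 14433 CPM in the EDTA section and 1320 CPM in adult spleen. Off-tissue spots held 29.0%, 26.9%, 34.1%, 52.0%, 8.45% and 43.1% of the member UMIs in that order, against 26.7%, 28.4%, 32.2%, 49.9%, 7.57% and 31.1% of all UMIs. In 5 sections the member share was above the share of all UMIs, and in E14.5 fetal liver it was below it. The part of the off-tissue UMIs in the tissue values was not tested.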

How the results depend on the processing

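In fetal liver, leaving out 1 section moved the median difference of the members between -3.64 and 3.49 on the log2 scale and the members called between 0 and 4. The ranges were -3.28 to 3.36 for Ltf, -3.64 to 3.65 for Camp, -3.87 to 3.49 for Lcn2, -4.16 to 3.91 for Ngp, -2.08 to 1.67 for Mmp8, -4.24 to 3.66 for S100a8, -4.39 to 4.02 for S100a9 and -0.70 to 1.29 for Retnlg. With 1 section left in a group, that section is assumed to vary like the other. Retnlg was at 0.02, at -0.051 by DESeq2 and at -0.023 in hepatocyte-rich spots. The replicate block gave a median of -0.16 and called 157 genes where the fit without it called 0. In spleen, the median difference of 8 members was -2.54 and ran from -2.91 to -2.26 over the alternatives. Leaving out 1 section gave Camp from -6.05 to -4.23, Ngp from -4.60 to -3.16, S100a9 from -2.73 to -1.66 and S100a8 from -2.39 to -1.37. The block gave -2.59, but the spleen sections share only a number. TMM scaling raised the log2 differences of the spleens by 0.26. In the pulp contrast DESeq2 called 4 members, 822 genes lower and 586 higher, against 7 members, 1423 genes lower and 801 higher by edgeR, and leaving out 1 section called 5 to 7. Fits of one genotype and of inner spots were chosen after seeing the data, and Retnlg was at 0.23 in the knockout spleens alone. Thinned to 2000 UMIs per spot, the log2 ratios were 0.40 for E14.5 over E13.5 liver, 2.76 for P8 marrow over E14.5 liver, 2.78 for 89-week over P8 marrow and 0.46 for spleen over E14.5 liver, against 0.29, 3.35, 2.30 and 0.60. With the 10 most abundant genes out of the total, the last 3 were 3.23, 2.32 and 0.21. With P8 held to pan-leukocyte spots, added after seeing the data, P8 marrow over E14.5 liver was 4.19 and 89-week over P8 marrow 1.45. The causes were not tested. Depth limits Chil3, Mmp8 and Retnlg most.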
